A study of Homo sapiens with 8 samples.

Results

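The genes examined are YAP1, WWTR1, TEAD1, TEAD4, CTGF, CYR61, ANKRD1, AMOTL2, AXL and LATS2, which hold the transcriptional end of the Hippo pathway and some of its best known target genes. They were chosen by symbol, with earlier results of these data known, and all 10 were found among the 27475 human genes of the table and passed the filter on low values (above 0 in at least 1 library of a comparison). They were measured by RNA-seq in RT112 and UM-UC-3, established cell lines from human bladder cancer grown in culture. In each line cells were given 3 pooled siRNAs (siPAI-1) and the controls were given 3 pooled scrambled siRNAs (Scr), 100 pmol for 72 h, so the controls were transfected cells too. There were 2 libraries for each siRNA in each line, 8 in all, numbered replicate 1 and 2. The paper speaks of independent siRNA experiments, more of them than there are libraries in a group, but the labels do not say that the 2 libraries of a group came from separate cultures, and p-values then measure only the spread between these libraries.

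The Hippo pathway is a kinase cascade that restrains growth when cells are crowded. Its kinases LATS1 and LATS2 phosphorylate the coactivators YAP (gene YAP1) and TAZ (gene WWTR1), which are then kept in the cytoplasm. When YAP and TAZ are free, they enter the nucleus and bind the TEAD factors, which recognise the short DNA element GGAATG near genes for matrix proteins, receptors and cytoskeletal proteins. The activity of YAP and TAZ depends on phosphorylation and location, which RNA levels do not show.

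All levels are TPM, the reads of a gene divided by its length and scaled to the same sum in every library, so they can be compared between genes. Fold changes are on log2(TPM + 0.1) and were tested with limma over all genes, and a gene is called where the Benjamini-Hochberg adjusted p is under 0.05. The depth estimated from the steps of low FPKM values was 29.4 to 34.1 M reads per library (M for mega). The 2 lines differ in lineage markers. Together 12 epithelial and urothelial markers summed to 9484 to 11010 TPM in the RT112 libraries and to 224.5 to 242.3 TPM in UM-UC-3. Most of the UM-UC-3 sum was KRT18 (167 to 186 TPM) and KRT8 (31.2 to 42.1 TPM). Of the 12, 5 had a mean of at least 1 TPM in UM-UC-3 and 10 in RT112. In UM-UC-3 EPCAM, CDH1 and UPK2 reached 0.48 TPM at most, while UPK1A and UPK3A were low in both lines (1.96 TPM at most). The mesenchymal markers VIM, ZEB1, CDH2 and FN1 together reached 2976 to 3260 TPM in UM-UC-3, nearly all of it VIM, and 72.4 to 147 TPM in RT112. CDH2 and FN1 ran the other way with Scr and were called higher in RT112, CDH2 at 10.6 and 9.22 TPM in UM-UC-3 against 18.2 and 20.6 TPM (limma, adjusted p = 0.00621) and FN1 at 64.3 and 70.6 TPM against 113 and 120.4 TPM (adjusted p = 0.00248). With siPAI-1 neither was called, at log2 fold changes of RT112 over UM-UC-3 of -0.10 for CDH2 and 0.31 for FN1 (limma, adjusted p = 0.867 and 0.468). Markers of other cell types were low, with sums of at most 25.1 TPM for 5 fibroblast markers (COL1A2 was listed at 0 throughout), 2.35 TPM for 3 endothelial and 0.53 TPM for 3 leukocyte markers. The part of this lineage difference in the results on the 2 lines was not tested.

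Promoters of the members are shown because TEAD factors are known to act through the GGAATG element, and the target genes differ in how many copies they hold near the start of transcription. GGAATG was searched on both strands (as GGAATG or CATTCC, which do not overlap each other) from 250 bases before to 50 bases after each RefSeq start of GRCh38.p14. Of 35116 starts, 14% held at least 1 copy, 1.37% at least 2 and 0.128% at least 3. The matrix gene CTGF held 3 copies, at -169, -104 and -95 from its start, and ANKRD1 held 2, at -220 and -128. The 250 bases before each start follow, 5′ to 3′ on the strand of the gene (the minus strand for both), with the elements in capitals, for CTGF from chr6:131951373-131951622 and for ANKRD1 from chr10:90921088-90921337.
CTGF: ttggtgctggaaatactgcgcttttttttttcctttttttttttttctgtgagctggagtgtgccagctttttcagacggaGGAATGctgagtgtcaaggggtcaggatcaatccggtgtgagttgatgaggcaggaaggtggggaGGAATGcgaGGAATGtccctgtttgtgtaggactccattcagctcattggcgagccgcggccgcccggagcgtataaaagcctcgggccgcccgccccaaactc
ANKRD1: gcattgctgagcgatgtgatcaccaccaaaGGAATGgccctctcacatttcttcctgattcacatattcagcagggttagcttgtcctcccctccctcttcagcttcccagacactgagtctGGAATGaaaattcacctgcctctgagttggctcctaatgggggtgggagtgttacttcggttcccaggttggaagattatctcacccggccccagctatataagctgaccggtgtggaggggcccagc
One copy each was found for YAP1 (at -162), for the second of the starts listed for AMOTL2 (at -69) and for the second start of AXL (at -212). The 30 bases around each are shown from chr11:102110273-102110302 (plus strand), chr3:134374499-134374528 (minus strand) and chr19:41226531-41226560 (plus strand), since these are members with a single element.
YAP1: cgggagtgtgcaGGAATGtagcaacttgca
AMOTL2: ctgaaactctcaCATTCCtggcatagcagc
AXL: cagactttgcacCATTCCactccctccgct
LATS2 held 1 copy at position 10 after its start. No copy was found in the windows of either WWTR1 start, of the first AMOTL2 start or of the first AXL start. CYR61, TEAD1 and TEAD4 had no entry in the promoter table. A match of these letters is a description of the window and not evidence of binding.

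The comparison of RT112 with UM-UC-3 shows in which line transcripts of these genes are more abundant. In bulk RNA, fewer cells with a transcript and less of it per cell cannot be told apart. With Scr, CTGF, WWTR1, AXL, AMOTL2, LATS2, CYR61 and YAP1 were lower in RT112 than in UM-UC-3, by between 1.39-fold (YAP1) and 63.7-fold (CTGF) in mean TPM. ANKRD1 was the exception and was 13.8-fold higher in RT112, a fold that rests on 2 low and unequal UM-UC-3 values. TEAD1 and TEAD4 were 1.16-fold and 1.15-fold lower in RT112 and were not called. Thus 7 of 10 members were called lower, where 26.3% of 19201 genes tested were, and 1 was called higher, where 25.3% were. Because 51.6% of all genes differed between the 2 lines in one direction or the other, a call by itself is common in this comparison. The median log2 fold change was -0.72 over the members and -0.06 over all genes tested.

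**Figure D1:**
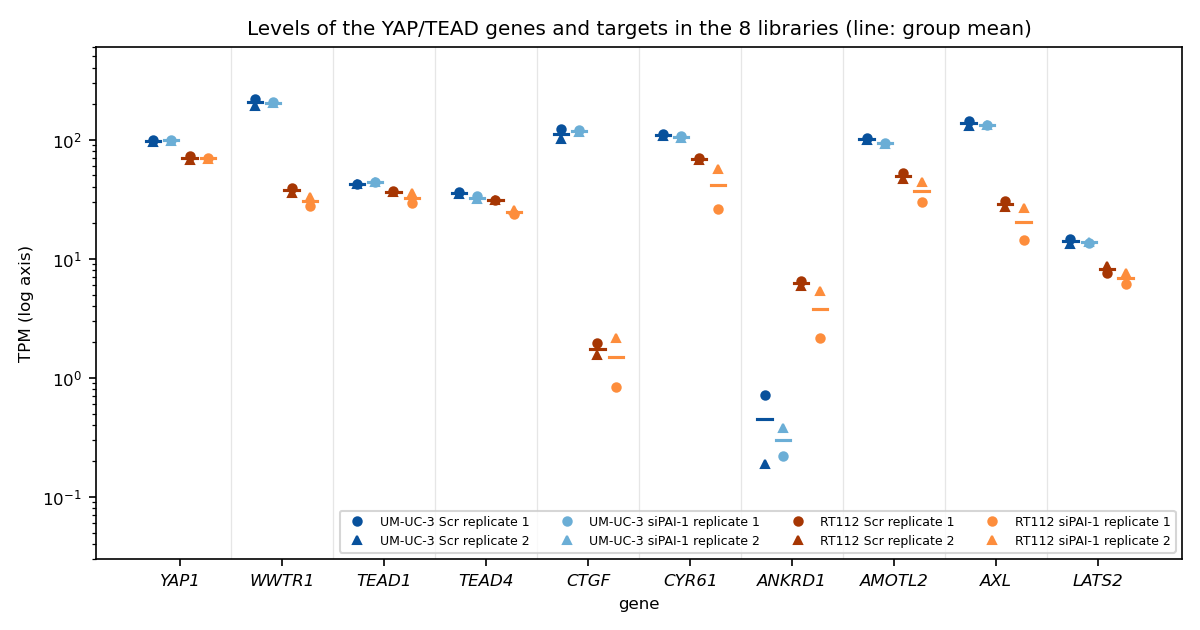
TPM on a log axis for each of the 10 genes in each of the 8 libraries (circles, replicate 1; triangles, replicate 2; short lines, group means), coloured by line and siRNA. CTGF stands at 101 to 122 TPM in the UM-UC-3 libraries and at 0.83 to 2.16 TPM in RT112, while ANKRD1 is the one gene with all RT112 libraries above all UM-UC-3 libraries.

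Of the coactivators, YAP1 (chr11:102110447-102233424) had 99.6 and 95.7 TPM under Scr in UM-UC-3, and 100.2 and 97.9 TPM under siPAI-1. Its RT112 levels were 73.5 and 67.0 TPM under Scr, and 70.5 and 69.4 TPM under siPAI-1. All 4 UM-UC-3 libraries were above all 4 RT112 libraries, and the log2 fold change with Scr was -0.48 (SE 0.07, limma, adjusted p = 0.00804). WWTR1, the gene of TAZ (chr3:149517235-149724788), had 219 and 193 TPM under Scr in UM-UC-3, and 207 and 203 TPM under siPAI-1. The RT112 libraries had 39.6 and 35.7 TPM under Scr, and 27.7 and 33.2 TPM under siPAI-1. The lines were far apart at this gene, 5.47-fold in mean TPM with Scr (log2 fold change -2.45, SE 0.10, limma, adjusted p = 0.000456). The more abundant coactivator transcript was therefore WWTR1 in UM-UC-3 and YAP1 in RT112. WWTR1 made up 67.8% ± 1.34 (SD, n = 2) of the summed TPM of YAP1 and WWTR1 in UM-UC-3 with Scr, and 34.9% ± 0.141 (SD, n = 2) in RT112. The sum itself was 303.5 TPM in UM-UC-3 and 107.9 TPM in RT112 (means with Scr).

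**Figure D2:**
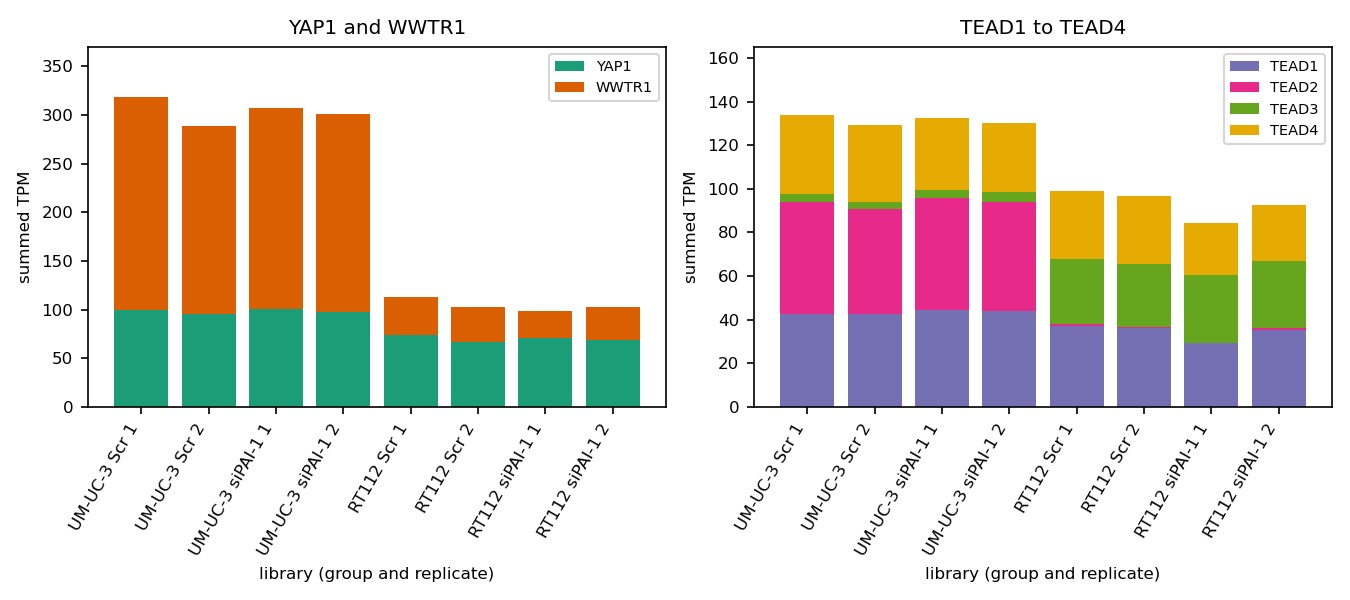
Stacked bars of TPM in each of the 8 libraries for YAP1 and WWTR1 (left) and for TEAD1 to TEAD4 (right). WWTR1 is the larger part of the left bars in UM-UC-3 and the smaller part in RT112, and TEAD2 fills 37.7% of the TEAD sum in UM-UC-3 with Scr against 0.794% in RT112, where TEAD3 takes 30%.

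Of the DNA-binding factors, TEAD1 (chr11:12674421-12944737) had 42.5 and 42.7 TPM under Scr in UM-UC-3, and 44.25 and 43.8 TPM under siPAI-1. RT112 showed 37.2 and 36.0 TPM under Scr, and 29.2 and 35.5 TPM under siPAI-1. The 2 Scr groups did not overlap, but the difference was small and was not called (log2 fold change -0.22, 95% interval -0.39 to -0.04, limma, adjusted p = 0.0502). TEAD4 (chr12:2959397-3040676) had 36.3 and 35.1 TPM under Scr in UM-UC-3, and 33.45 and 31.7 TPM under siPAI-1. In RT112 the values were 31.15 and 31.0 TPM under Scr, and 23.8 and 25.4 TPM under siPAI-1. Its difference with Scr was of the same size as that of TEAD1 (log2 fold change -0.20, 95% interval -0.39 to -0.02, limma, adjusted p = 0.0709). On FPKM in place of TPM both differences with Scr were called, at adjusted p values of 0.0344 and 0.0359 in limma, and that of TEAD1 also with a pseudocount of 1 TPM (0.0459) or 0.01 TPM (0.0478).

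CTGF, a secreted matrix protein also named CCN2 (chr6:131948176-131951372), had the widest gap between the lines among the members. It had 122 and 101 TPM under Scr in UM-UC-3, and 121 and 117 TPM under siPAI-1. Its RT112 levels were 1.97 and 1.54 TPM under Scr, and 0.83 and 2.16 TPM under siPAI-1. All 4 RT112 libraries lay far below all 4 UM-UC-3 libraries, and the log2 fold change with Scr was -5.92 (SE 0.18, limma, adjusted p = 0.000313). The RT112 values rest on at most 44 to 105 estimated reads per library, against at most 5178 to 6468 in UM-UC-3. CYR61, the related matrix protein CCN1 (chr1:85580761-85583950), had 111 and 108 TPM under Scr in UM-UC-3, and 108 and 104 TPM under siPAI-1. The RT112 libraries had 69.9 and 67.6 TPM under Scr, and 26.3 and 57.0 TPM under siPAI-1. It too was lower in RT112 in every library, but with Scr by only 1.59-fold in mean TPM (log2 fold change -0.67, SE 0.05, limma, adjusted p = 0.00163). In 1 fit over all 8 libraries this call was lost (adjusted p = 0.122).

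ANKRD1 codes for an ankyrin repeat protein of nucleus and muscle sarcomere and is widely used as a readout of YAP (chr10:90912096-90921087). In UM-UC-3 it had 0.71 and 0.19 TPM under Scr, and 0.22 and 0.38 TPM under siPAI-1, which is at most 7.1 to 25.2 estimated reads per library. RT112 showed 6.48 and 5.92 TPM under Scr, and 2.15 and 5.38 TPM under siPAI-1. CTGF and ANKRD1 both hold more than 1 GGAATG element and ran in opposite directions, with every RT112 library above every UM-UC-3 library for ANKRD1 (log2 fold change with Scr 3.70, SE 0.57, limma, adjusted p = 0.00881). With so few reads in UM-UC-3 the size of this fold depends on the pseudocount, and over the settings that kept all libraries it ran from 2.33 to 4.03 on the log2 scale. It was 4.44 without UM-UC-3 Scr replicate 1 and 2.96 without replicate 2.

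AMOTL2 is an angiomotin-family scaffold that binds YAP and holds it outside the nucleus (chr3:134355345-134375417). It had 104 and 98.7 TPM under Scr in UM-UC-3, and 94.55 and 91.1 TPM under siPAI-1. In RT112 the values were 52.7 and 47.2 TPM under Scr, and 29.9 and 43.95 TPM under siPAI-1. Its mean with Scr was 2.03-fold higher in UM-UC-3, with no overlap of libraries (log2 fold change -1.02, SE 0.08, limma, adjusted p = 0.00153). AXL, a receptor tyrosine kinase for the ligand GAS6 (chr19:41219223-41261766), had 144 and 130.4 TPM under Scr in UM-UC-3, and 132 and 133 TPM under siPAI-1. Its RT112 levels were 30.6 and 27.1 TPM under Scr, and 14.25 and 26.6 TPM under siPAI-1. The gap was 4.76-fold with Scr (log2 fold change -2.25, SE 0.10, limma, adjusted p = 0.000498).

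LATS2 is both a target of YAP and the kinase that inhibits it (chr13:20973036-21061586). It had low but measurable levels, in UM-UC-3 of 14.6 and 13.4 TPM under Scr, and 13.4 and 13.9 TPM under siPAI-1. The RT112 libraries had 7.62 and 8.75 TPM under Scr, and 6.08 and 7.65 TPM under siPAI-1. It was 1.71-fold lower in RT112 with Scr (log2 fold change -0.77, SE 0.13, limma, adjusted p = 0.0116). When 1 of the 4 Scr libraries was left out, a lone library stood for its group, and fewer genes were called over all genes tested too. CTGF, WWTR1, AXL and CYR61 stayed called lower each time, and the LATS2 call was lost each time. The YAP1 call was lost without RT112 replicate 2 or either UM-UC-3 library. That of AMOTL2 was lost without either UM-UC-3 library and that of ANKRD1 without either RT112 library.

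The siPAI-1 libraries give the same line comparison in libraries that share none with the Scr comparison. There 9 members were called lower in RT112, where 26.1% of 19359 genes were, and ANKRD1 was again the 1 called higher, where 26.2% were (52.2% in either direction). When the test kept genes from a mean of 1 TPM up, 4467 of 12795 genes were lower and 4431 higher, with the same counts of members. The log2 fold changes were -6.36 for CTGF, -2.76 for AXL, -2.75 for WWTR1, -1.45 for CYR61 and -1.35 for AMOTL2, with SEs from 0.10 (WWTR1) to 0.46 (CTGF) and adjusted p values in limma up to 0.0431 (CYR61). LATS2 stood at -0.99, YAP1 at -0.50, TEAD1 at -0.45, TEAD4 at -0.40 and ANKRD1 at 3.16, with adjusted p values in limma from 0.00281 (YAP1) to 0.0363 (TEAD1). The median over the members was -1.17, against -0.02 over all genes. TEAD1 and TEAD4 were thus called with siPAI-1 and not with Scr, but this does not show that the siRNA moved the gap, since the difference between these 2 comparisons was not called (log2 difference -0.23 and -0.20, limma, adjusted p = 0.846 and 0.815). Without either UM-UC-3 siPAI-1 library only WWTR1 and YAP1 remained called lower, and ANKRD1 and TEAD4 lost their calls without any 1 of the 4 libraries. With a library left out, fewer genes were called over all genes tested too. Without trend in eBayes, CYR61, TEAD1 and TEAD4 were not called with siPAI-1 (adjusted p = 0.0828, 0.086 and 0.0546), nor was CYR61 with a pseudocount of 0.01 TPM (0.0535).

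**Figure D3:**
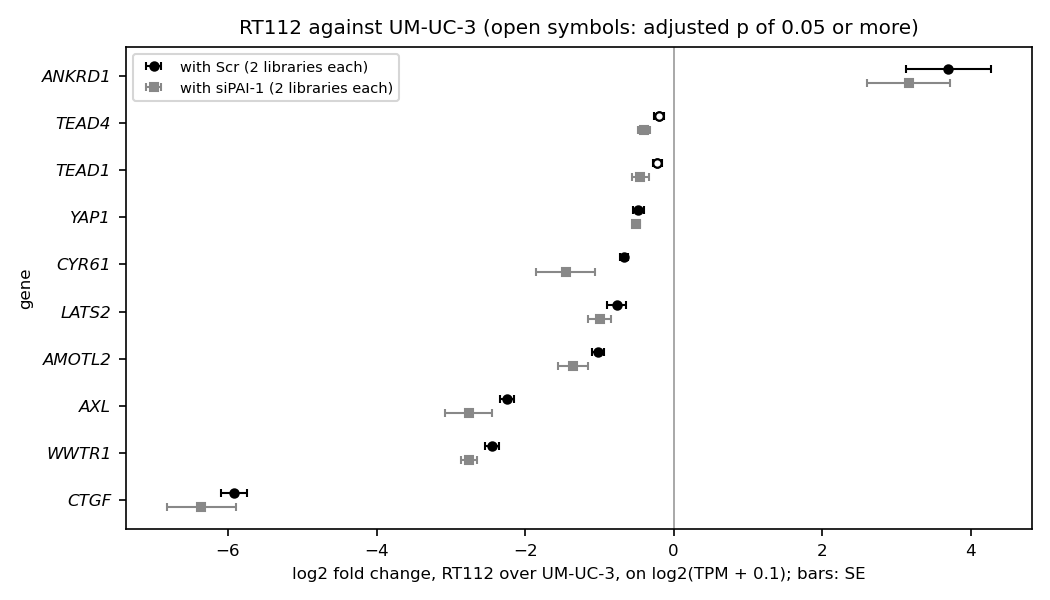
Log2 fold change of RT112 over UM-UC-3 for the 10 genes, with SE bars, with Scr (black circles) and with siPAI-1 (grey squares), 2 libraries per group. Open symbols mark an adjusted p of 0.05 or more, and 9 genes lie left of 0 in both comparisons while ANKRD1 lies at 3.70 and 3.16.

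Among the other TEAD factors and their VGLL cofactors, the gap between the lines was wider than for TEAD1 and TEAD4. All 5 genes detected of the 6 listed were called with Scr, 3 higher and 2 lower in RT112 (over all genes, 25.3% and 26.3%). TEAD2 was at 51.5 and 47.8 TPM in UM-UC-3 with Scr and at 0.77 and 0.78 TPM in RT112 (log2 fold change -5.83, SE 0.13, limma, adjusted p = 0.000274). TEAD3 was at 3.57 and 3.49 TPM in UM-UC-3 and at 29.75 and 28.75 TPM in RT112 (log2 fold change 3.02, SE 0.11, limma, adjusted p = 0.000385). The summed TPM of TEAD1 to TEAD4 with Scr was 131.5 in UM-UC-3 and 97.7 in RT112, so the sums were nearer to each other than the TEAD2 and TEAD3 levels were. VGLL1, a cofactor that binds TEAD at the surface used by YAP, was listed at 0 and at 0.66 TPM in UM-UC-3 with Scr and was at 126 and 144 TPM in RT112 (limma, adjusted p = 0.00408). VGLL3 was at 1.14 and 0.47 TPM against 34.05 and 36.9 TPM (log2 fold change 5.40, SE 0.42, limma, adjusted p = 0.0015). VGLL4, which competes with YAP for TEAD, was at 50.5 and 40.3 TPM in UM-UC-3 and at 30.8 and 26.9 TPM in RT112 (log2 fold change -0.64, SE 0.15, limma, adjusted p = 0.0266). The VGLL4 call was lost without trend in eBayes (adjusted p = 0.0634) and without any 1 of the 4 Scr libraries, and those of VGLL1 and VGLL3 were lost without either RT112 Scr library. VGLL2 was listed at 0 in all libraries.

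Other known target genes of YAP and TAZ were called in both directions. Of 16 listed, 4 were called higher in RT112 with Scr, where 25.3% of all genes were, 7 lower, where 26.3% were, and 5 neither, with a median log2 fold change of -0.13 against -0.06 over all genes. Among those higher were F3, the tissue factor that starts coagulation (4.72 and 2.12 TPM in UM-UC-3, 164 and 140.0 TPM in RT112), the growth factor TGFB2 (0.07 and 0.05 TPM against 3.85 and 4.2 TPM) and the IGF-binding protein IGFBP3 (76.1 and 68.0 TPM against 322 and 300.7 TPM). Their log2 fold changes were 5.54, 4.69 and 2.11, with SEs of 0.41, 0.29 and 0.08. That of TGFB2 rests on UM-UC-3 values below the pseudocount and ran from 2.24 to 5.86 over the settings that kept all libraries. With siPAI-1 TGFB2 was not called between the lines (log2 fold change 2.84, limma, adjusted p = 0.0827), while F3 and IGFBP3 were. FOXF2, a forkhead factor, was also higher, by 0.52 (SE 0.13) on the log2 scale. The F3 call was lost without either RT112 Scr library, and that of FOXF2 without any single Scr library. Among those lower were NT5E, the ectoenzyme that makes adenosine (515 and 457 TPM in UM-UC-3, 27.1 and 28.2 TPM in RT112), FJX1 (62.4 and 53.6 TPM against 5.77 and 5.23 TPM) and the YAP-binding phosphatase PTPN14 (39.7 and 39.9 TPM against 7.11 and 8.33 TPM). Their log2 fold changes were -4.13, -3.37 and -2.36, and that of ASAP1, an ARF GTPase-activating protein, was -0.90.

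Of 22 Hippo kinases and upstream regulators, 6 were called higher in RT112 with Scr, 9 lower and 7 neither, against the same 25.3% and 26.3% of all genes, so the count of those higher is near the background. The MST kinases differed in direction: STK3 (MST2) was at 24.4 and 19.3 TPM in UM-UC-3 and at 42.5 and 46.6 TPM in RT112, while STK4 (MST1) was at 36.0 and 34.3 TPM against 18.2 and 19.98 TPM. The angiomotin AMOTL1 was higher in RT112 by 2.02 on the log2 scale, where its relative AMOTL2 was lower. The LIM proteins also parted, with AJUBA at 1.51 and WTIP at -1.96 on the log2 scale. Of the FAT cadherins FAT4 was at -5.25 and FAT1 at 0.31. FAT4 had only 0.05 and 0.02 TPM in RT112 with Scr. Its log2 fold change ran from -6.88 to -2.53 over the settings that kept all libraries. The FAT1 call was lost without trend in eBayes (adjusted p = 0.11) and without any 1 of the 4 Scr libraries. WWC2, of the KIBRA family, was at -1.69 on that scale. The calls of STK4, AMOTL1 and WWC2 were lost without either UM-UC-3 Scr library. That of STK3 was lost without UM-UC-3 Scr replicate 2 or either RT112 Scr library. Of 9 family relatives of the members, 3 were higher and 4 lower, few genes to set against the 25.3% and 26.3% of all genes. The CCN genes NOV and WISP3, both under 6 TPM in every library, were lower in RT112 like CTGF and CYR61 (log2 fold changes -3.77 and -3.44). WISP2, also of this family, was higher, at 0.44 TPM in both UM-UC-3 libraries and at 0.95 and 1.07 TPM in RT112 (log2 fold change 1.04, SE 0.29, limma, adjusted p = 0.0433). This call was lost without any 1 of the 4 libraries and in 1 fit over all 8 libraries (limma, adjusted p = 0.0548). Of the receptors related to AXL, MERTK was lower (-3.62) and TYRO3 higher (1.38) in RT112, and the ligand GAS6 was lower (-1.40). MERTK had only 0.18 and 0.07 TPM in RT112 with Scr. Its log2 fold change ran from -4.39 to -1.67 over the settings that kept all libraries. ANKRD2, a relative of ANKRD1, was at 3.21 and 3.36 TPM in RT112 with Scr and was listed at 0 and at 0.22 TPM in UM-UC-3. The MERTK call was lost without either UM-UC-3 Scr library, and those of TYRO3, WISP3 and ANKRD2 without either RT112 Scr library. That of ANKRD2 was also lost with a pseudocount of 0.01 TPM (limma, adjusted p = 0.05145). Over the settings that kept all libraries, the log2 fold change ran from 1.96 to 6.10 for ANKRD2 and from -4.37 to -1.42 for WISP3.

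**Figure D4:**
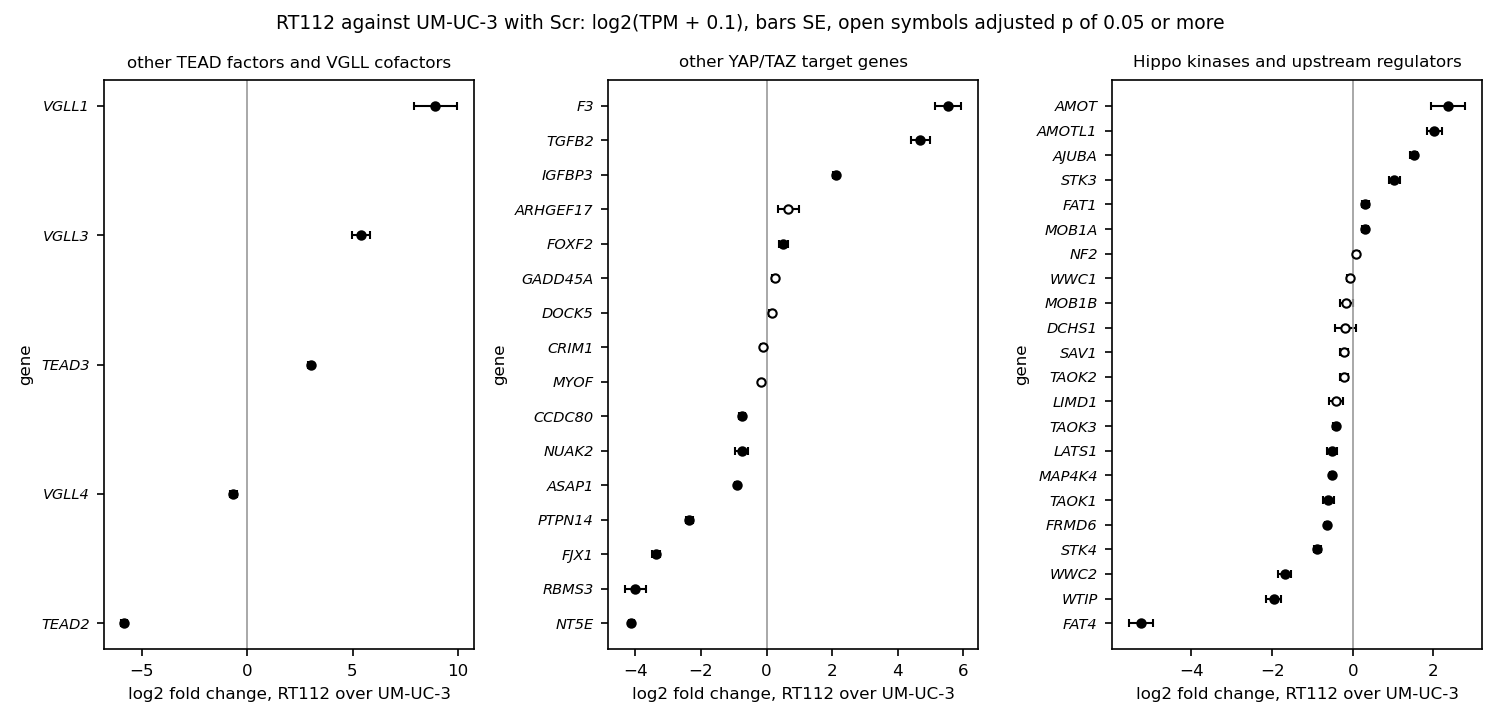
Log2 fold change of RT112 over UM-UC-3 with Scr, with SE bars, for the 5 detected TEAD and VGLL genes, 16 other YAP/TAZ target genes and 22 Hippo kinases and upstream regulators. Filled symbols have an adjusted p under 0.05, and each of the 3 lists holds called genes on both sides of 0.

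Whether siPAI-1 moved these genes was examined within each line. In UM-UC-3 the members with siPAI-1 stayed near their Scr levels. Limma called 0% of 18528 genes in this line, and at an unadjusted p under 0.05 it had 482 genes higher (2.6%) and 632 lower (3.41%), 6.01% together, with 0 of the 10 members in either group. The siPAI-1 mean was 91.1% (TEAD4) to 106% (CTGF) of the Scr mean for 9 members and 66.7% for ANKRD1, which rests on few reads. The log2 fold changes ran from -0.31 (ANKRD1) to 0.09 (CTGF), with a median of -0.04 against -0.01 over all genes. The 95% intervals of the 9 better measured members lay between -0.33 and 0.35 on the log2 scale. Both siPAI-1 libraries lay below both Scr libraries for AMOTL2 and TEAD4 (background, 17.1% of genes, and 20.4% of genes whose mean reached 1 TPM) and above them for TEAD1 (background 15.1% and 17.4%). These counts are near the background.

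In RT112 all 10 members had a lower mean with siPAI-1 than with Scr, but none was called. Limma called 0% of 18437 genes, and at an unadjusted p under 0.05 it had 617 genes higher (3.35%) and 446 lower (2.42%), 5.77% together. TEAD4 was the 1 member among them (log2 fold change -0.33, SE 0.08, unadjusted p = 0.0118, adjusted p = 0.838), at 79.3% of its Scr mean and with both siPAI-1 libraries close together. The number of members at that unadjusted level depended on the fit, all of them lower. It was 4 when the test kept genes from a mean of 1 TPM up, where 361 of 12198 genes were lower. With all 8 libraries fitted it was also 4, where 656 of 20274 genes were lower. It was 2 with rescaling (512 of 18437 genes lower) and 2 with a replicate block (365 of 18437). CYR61 had a log2 fold change of -0.83 (95% interval -1.81 to 0.15), ANKRD1 of -0.84 (-2.07 to 0.39), AXL of -0.56 (-1.38 to 0.25) and AMOTL2 of -0.46 (-0.99 to 0.07), and all 4 adjusted p values in limma were 0.838. WWTR1 stood at -0.31 (-0.63 to 0.01), CTGF at -0.35 (-1.77 to 1.08), LATS2 at -0.26 (-0.77 to 0.26) and TEAD1 at -0.19 (-0.49 to 0.12), while YAP1 was level at -0.005 (-0.20 to 0.19). The median over the members was -0.34, against 0.01 over all genes tested.

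Counting libraries in place of p values, both RT112 siPAI-1 libraries lay below both Scr libraries for 7 of 10 members, AMOTL2, ANKRD1, AXL, CYR61, TEAD1, TEAD4 and WWTR1. The background was 14.7% of 18437 genes and 17.3% of genes whose mean reached 1 TPM. For 0 members did both lie above, where 18% and 20% of genes did. With siPAI-1 replicate 1 left out, the same 7 genes still had the remaining library below both Scr libraries (background 27.4%), and the median log2 fold change of the members was -0.15. With replicate 2 left out there were 9 (background 30%), and the median was -0.59. The 7 genes come from the same 4 libraries and are not independent of each other. Of the 16 other target genes, 5 had both siPAI-1 libraries below both Scr libraries and 0 above, and their median log2 fold change was -0.14. Those with an unadjusted p under 0.05 were NT5E (-0.49) and GADD45A (-0.39), the second named here after its value was seen, and both had an adjusted p of 0.838 in limma.

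**Figure D5:**
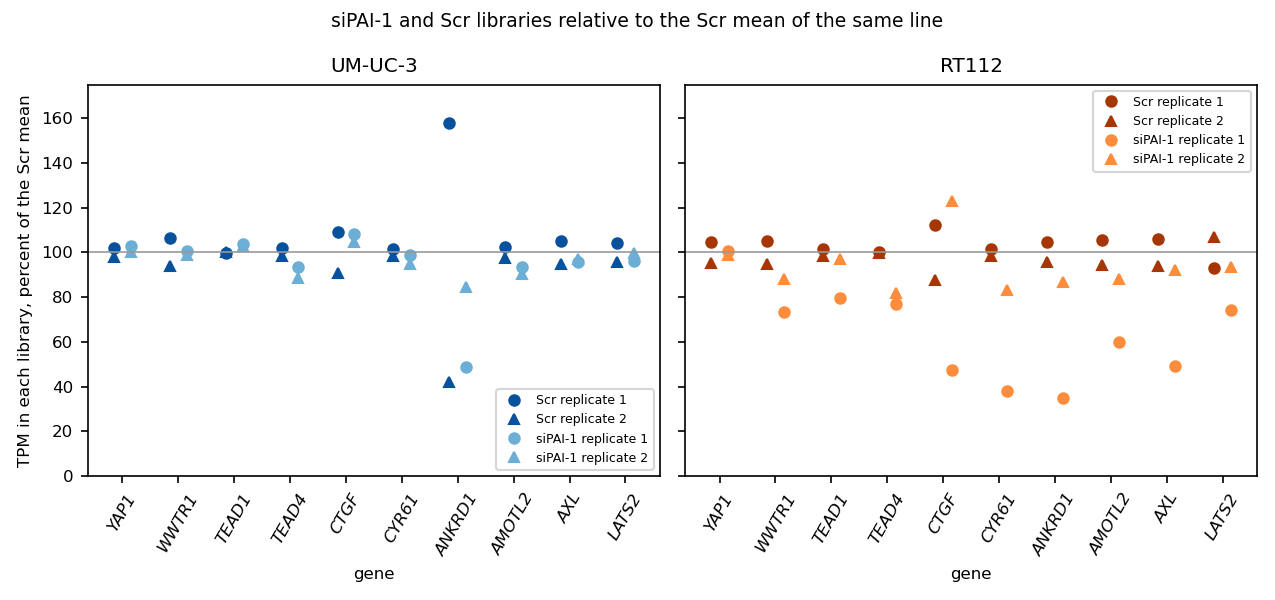
TPM of the 10 genes in each library as a percent of the Scr mean of the same line, for UM-UC-3 (left) and RT112 (right), with circles for replicate 1 and triangles for replicate 2. In RT112 the siPAI-1 circle lies below the triangle for every gene shown except YAP1, at 38.2% against 82.9% for CYR61.

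The size of the shift in RT112 differed between the 2 siPAI-1 libraries. Relative to the Scr mean, replicate 1 was at 34.7% for ANKRD1, 38.2% for CYR61, 47.3% for CTGF, 49.3% for AXL and 59.9% for AMOTL2. Replicate 2 was at 86.8%, 82.9%, 123%, 92.0% and 88.0% for the same genes. Replicate 1 was the lower library for 9 of 10 members, where 50.2% of 12209 genes were lower in it, and for 14 of 15 other target genes. The median log2 difference between replicate 1 and 2 was -0.44 over the members and -0.28 over those targets, while over all genes it was near 0. In the Scr group of RT112, replicate 1 was the lower library for 1 of 10 members. The SD of the log2 differences over all genes was 0.429 in this group and 0.396 to 0.426 in the other groups, so by this measure the library did not stand apart across all genes. Lower in replicate 1 as well were the mesenchymal markers FN1 (58.25 against 108 TPM), CDH2 (7.65 against 17.9 TPM), VIM and ZEB1, the last 2 at low levels. The epithelial and urothelial markers were split. KRT7 (3278 against 4136 TPM), KRT5 (593 against 800 TPM), KRT8, KRT18 and CDH1 were lower in replicate 1. EPCAM (344 against 327 TPM), GATA3 (126.5 against 103 TPM), PPARG, UPK1A, UPK1B, UPK2 and UPK3A were higher in it. The part of these in the lower target levels was not tested.

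The difference of the siPAI-1 effect between the lines was tested in 1 fit over all 8 libraries. Limma called 0% of 20274 genes and 0 of 10 members, and at an unadjusted p under 0.05 it had 1370 genes (6.76%), 559 of them more negative in RT112 (2.76%), with 0 members among them. The point estimates were below 0 for all 10 members, that is, lower in RT112, with a median of -0.32 against 0.02 over all genes. The lowest was CYR61 at -0.78 (95% interval -1.84 to 0.28, adjusted p = 0.843), and YAP1 was at -0.03 (-0.24 to 0.19, adjusted p = 0.959). This comparison shares its libraries with those within the lines and adds no separate evidence. Without RT112 siPAI-1 replicate 2, which leaves the library with the lower values to stand for the group, CYR61 was called (-1.34, limma, adjusted p = 0.0279), and without replicate 1 it was at -0.22.

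The genes whose levels followed a member most closely over the 8 libraries were found from the root mean square (RMS) difference of centred log2(TPM + 0.1) profiles among 12802 genes. For CTGF the nearest was TEAD2 (RMS 0.146), followed by MXRA7 (0.161) and the receptor tyrosine kinase KIT (0.194). In the RT112 libraries KIT was at 0.04 to 0.15 TPM and TEAD2 at 0.28 to 0.78 TPM. Their gap between the lines therefore depends on the pseudocount, and the ranking was not repeated with another pseudocount. No other member was nearer to CTGF than rank 876 (WWTR1). MXRA7 was at 115 and 112 TPM in UM-UC-3 with Scr and at 2.45 and 1.68 TPM in RT112. For CYR61 the nearest were the tropomyosin TPM1 (0.162), the kinase anchor AKAP2 (0.173), whose exons are shared with a longer annotated gene so that its value is uncertain, and CHAC1 (0.185), and of the members AMOTL2 was at rank 5 and LATS2 at rank 60, while CTGF was at rank 11776 and ANKRD1 at rank 11550. TPM1 shared the low value of RT112 siPAI-1 replicate 1, at 43.96 TPM against 103 TPM in replicate 2 and 131 and 129.9 TPM with Scr. For WWTR1 the nearest were the phosphatase DUSP1 (0.0464), the small GTPase RAB32 (0.0787) and ITPRIP (0.0992), and AXL was at rank 62, the other members at ranks from 1157 (AMOTL2) to 11828 (ANKRD1). These likenesses include the gap between the lines and its size, so genes that differ in 1 direction by unlike amounts can rank far apart. CTGF and CYR61 were both lower in RT112, by unlike amounts, and from CTGF the rank of CYR61 was 2045. The likenesses describe 8 libraries of 2 lines only.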

How the data were processed

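Values in TPM and in FPKM, rounded to 2 decimals, were deposited by the authors for each gene in 8 libraries. Per the paper's methods, mRNA libraries made with a stranded kit were read in single reads of 75 bases, and the authors trimmed reads with cutadapt, aligned them to hg38 with STAR, counted with featureCounts and compared knock-down with control in DESeq2. The submitters' processing notes name STAR 2.5.0 and RSEM 1.2.25, and the deposited TPM and FPKM columns carry RSEM's suffix, so which program made them is not settled. Counts were not used here. Groups and replicates came from the labels. ERCC entries (92, at 0 throughout) were left out.

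Each comparison used limma 3.58.1 in R 4.3.3 on log2(TPM + 0.1), two-sided, with lmFit and a trended eBayes, for genes that exceeded 0 TPM in any library of the fit, with Benjamini-Hochberg adjustment, on only the groups compared, and on all 8 libraries for the difference between lines. The code was tested on simulated data. On this scale the fold of genes with low values is understated. Depth was estimated as the number of reads, between 20 and 45 M, that brings low FPKM values of short genes nearest to whole reads. Estimated reads per gene use the longest transcript and are upper estimates with counting error only. Promoter sequences and gene positions are RefSeq's, on GRCh38.p14. 7 of the 10 members had a promoter entry.

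The members and gene lists were chosen with earlier results of these data known. All members are named. The level of the siRNA target is not reported here. From each other list the text names up to 4 genes in each direction with the largest fold between the lines, among those called with a mean of at least 1 TPM with Scr, and any TEAD or CCN gene. The 3 genes most alike are named for CTGF, CYR61 and WWTR1. The alternatives used FPKM, pseudocounts of 1 and 0.01 TPM, rescaling by the median ratio (factors 0.987 to 1.04), a filter at a mean of 1 TPM, 1 fit over all libraries, eBayes without trend, a replicate block and each library left out. Replicate numbers did not pair the libraries: over 12803 genes, Pearson's r between the replicate differences of the Scr and siPAI-1 groups was 0.044 for UM-UC-3 and -0.043 for RT112. Summaries and plots used Python 3.11.15, numpy 2.4.6, pandas 2.3.3 and matplotlib 3.10.9.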

Additional observations from a re-analysis of the deposited data

Results flagged for a closer look

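TEAD1 had both siPAI-1 libraries above both Scr libraries in UM-UC-3 (44.25 and 43.8 TPM against 42.5 and 42.7 TPM) and both below them in RT112 (29.2 and 35.5 TPM against 37.2 and 36.0 TPM). The siPAI-1 libraries thus lay on opposite sides of Scr in the 2 lines, by small amounts at the nearest libraries. Over all genes, 15.1% did not overlap upward in UM-UC-3 and 14.7% downward in RT112. Of genes whose mean reached 1 TPM, 17.4% and 17.3% did so. The share of genes meeting both rules at once was not counted. On FPKM the UM-UC-3 libraries of TEAD1 overlapped. The log2 difference of the siPAI-1 effect, RT112 minus UM-UC-3, was -0.233 (95% interval -0.56 to 0.10), and limma did not call it (adjusted p = 0.846).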

How the results depend on the processing

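Over 92 results and 1114 values under the alternatives, 993 were kept. For a single gene this means the same direction and side of the threshold, and for a count of members a change within 1.5 times. Counts of members called with all libraries kept stayed within 1.5 times. With a replicate block, limma called the same counts, 7 lower and 1 higher with Scr and 9 lower and 1 higher with siPAI-1, and 0 within the lines, and among the genes named from the lists FOXF2 and WISP2 lost their calls with Scr (adjusted p = 0.0595 and 0.111). In UM-UC-3, the members with both siPAI-1 libraries below Scr were 4 on FPKM, where 18% of all genes were, and those above 0, where 14.8% were. After median-ratio rescaling 2 were above, where 16.7% of all genes were. Rescaling also turned WWTR1 to 0.0022 on the log2 scale. With 1 library left out, a lone library is assumed to vary like the others. In both comparisons of the lines fewer genes were then called over all genes tested, so lost calls were not particular to the members. Members called lower with Scr then were 4 (without either UM-UC-3 library) to 6 and higher 0 (without either RT112 library) to 1. With siPAI-1 they were 2 (without either UM-UC-3 library) to 8 lower and 0 to 0 higher, and for the difference between the lines 0 to 1 (CYR61, without RT112 siPAI-1 replicate 2). Members whose libraries did not overlap in UM-UC-3 were 2 to 8 lower (8 without Scr replicate 2, where 39.5% of all genes were) and 1 to 7 higher (7 without Scr replicate 1, where 34.4% were), and in RT112 0 to 1 higher (32% to 37.2% of all genes).

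With 1 library left out, 50 single-gene values between the lines with Scr lost their call and 102 kept their side of the threshold, and with siPAI-1 20 lost it and 20 kept their side. Small log2 changes with siPAI-1 reversed sign when 1 library was left out. In UM-UC-3 the ranges were -0.0086 to 0.049 for YAP1, -0.095 to 0.087 for WWTR1, -0.0395 to 0.23 for CTGF, -1.05 to 0.43 for ANKRD1, -0.12 to 0.023 for AXL and -0.093 to 0.031 for LATS2. In RT112 they were -0.072 to 0.062 for YAP1 and -0.99 to 0.29 for CTGF. For the difference between the lines they were -0.092 to 0.041 for YAP1, -1.08 to 0.20 for CTGF and -1.28 to 0.21 for ANKRD1. The cause was not tested. With 2 libraries per group, depth limits, among the 10 members, chiefly ANKRD1 in UM-UC-3 and CTGF in RT112. Other named genes rest, with Scr, on fewer estimated reads than CTGF in RT112. They include TEAD2, FAT4, MERTK, NOV and WISP3 in RT112 and ANKRD2, VGLL1, TGFB2 and WISP2 in UM-UC-3.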
